A study of Homo sapiens with 12 samples.

Results

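The mRNA of 8 cytokine genes of fibroblasts, CCL2, CXCL12, IL11, LIF, IL7, IL15, CSF1 and IL32, is described across 12 RNA-seq libraries. The 8 genes were taken by name, and all 8 were present among the 61541 gene identifiers of the deposited tables. All 8 also passed the filter on low counts, which left 12329 genes to test. The libraries were made from polyadenylated RNA. All came from IMR90, human lung fibroblasts of wild-type genotype. Every library had received doxorubicin, an anthracycline that damages DNA and drives cultured fibroblasts into senescence, for 24 h and was then kept for at least 8 days, per the labels' protocols. The groups were cells on plastic with 100 nM of the drug, cells on a soft gel of 2 kPa with 100 nM, cells on plastic with 250 nM and cells on the gel with 250 nM, with 3 libraries each. The labels give the doses in nM in the titles and in µM in the protocol, and they call the soft substrate a hydrogel in one place and a PDMS coating in another. No untreated library was analysed here, so levels compare substrates and doses and not drug with vehicle.

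Senescent fibroblasts secrete a mixture of cytokines, chemokines, growth factors and proteases that acts on neighbouring cells, and lung fibroblasts are a main source of several of these signals in the tissue. Chemokines draw leukocytes along a gradient, and they are held on the heparan sulfate chains of matrix and cell-surface proteoglycans. Of the other cytokines here, IL11 and LIF act through the shared receptor chain gp130, and IL7 and IL15 through the common gamma chain. Both chains signal through JAK kinases and STAT factors.

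The 100 nM libraries held 5887056 to 7351916 expected counts in total and the shallower 250 nM libraries 2229069 to 2730309. The 6 libraries of one dose form one library set, since molecular identifiers are mentioned in the table names of the higher dose alone, so dose and library set cannot be told apart. Replicate 1 of each gel group stood apart in the number of genes above 0, with 20498 at 100 nM against 18351 to 19242 in the other 5 libraries of that dose, and with 14423 at 250 nM against 16175 to 17402. Results are therefore also given without these 2 libraries where that changed a call. Of 10 fibroblast markers 9 passed the filter, with a summed level between 9358 and 14643 CPM (counts scaled to the TMM-corrected library size), and TBX4 did not pass. None of 12 leukocyte markers passed, and their sum was 0.137 to 3.31 CPM. The labels do not say that replicates were separate cultures, so p-values measure only the spread between these libraries. In bulk RNA, fewer cells that express a gene and less RNA per cell cannot be told apart.

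Per unit of transcript length, IL32 had the highest mean level of the 8 genes over all libraries, 19.0 TPM (abundance scaled for transcript length and library total). It was followed by IL11 at 10.3 TPM, CXCL12 at 9.69 TPM and CCL2 at 7.84 TPM. IL7 at 3.5 TPM, CSF1 at 1.22 TPM, IL15 at 1.15 TPM and LIF at 0.782 TPM made up the lower end. These means hide wide ranges over the libraries, from 3.60 to 46.2 TPM for IL32 and from 2.48 to 30.0 TPM for CCL2.

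**Figure D1:**
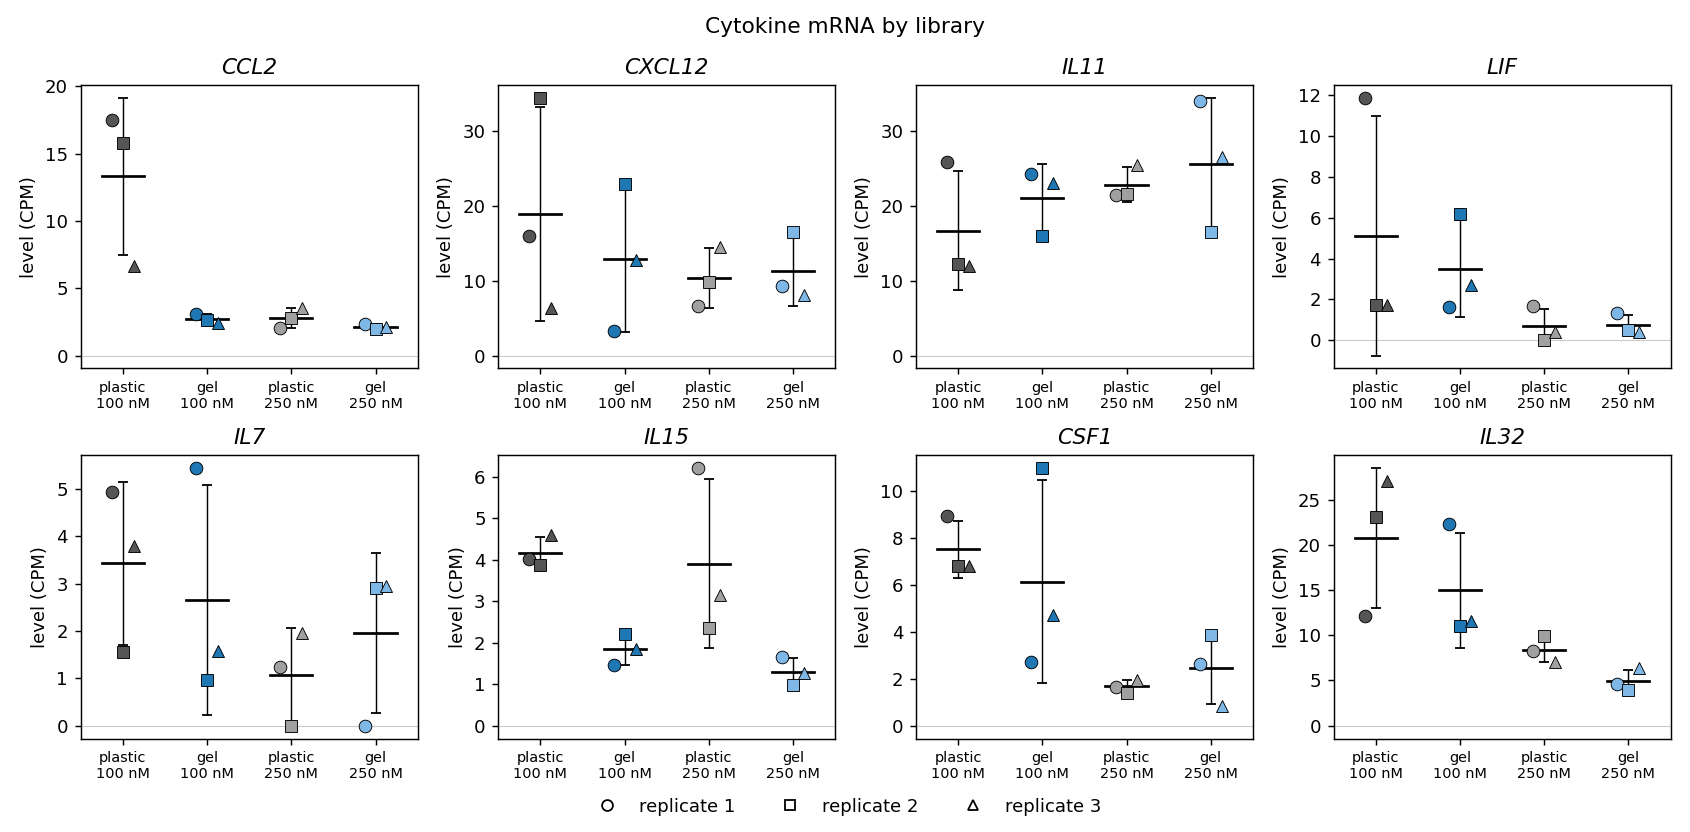
Level of each cytokine mRNA in every library, in CPM on a linear axis with its own scale for each gene. Symbols are the 3 replicates, the thick bar is the mean and the thin bar 1 SD. CCL2 lay between 6.65 and 17.5 CPM on plastic at 100 nM and at or below 3.53 CPM in the other 3 groups.

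The chemokines come first. CCL2 draws monocytes through the receptor CCR2, and CXCL12 holds CXCR4-bearing cells in stromal niches. Their coding sequences are shown because the spacing of the leading cysteine codons, in capitals, places each in its class: adjacent in the CC chemokine and separated by 1 codon in the CXC chemokine. The CCL2 stretch covers chr17:34256233-34256262 on the plus strand in exon 2 of transcript CCL2-201, with the cysteines at codons 34 and 35. The CXCL12 stretch covers chr10:44380834-44380866 on the minus strand in exon 2 of CXCL12-201, with the cysteines at codons 30 and 32. Both are from GRCh38 with the GENCODE 29 annotation and are written 5′ to 3′ along the mRNA.
CCL2: gccccagtcaccTGCTGTtataacttcacc
CXCL12: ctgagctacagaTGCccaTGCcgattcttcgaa

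CCL2 mRNA was far higher on plastic at 100 nM than in any other group. The gene (chr17:34255218-34257203, plus strand) stood at 17.5, 15.8 and 6.65 CPM in the 3 libraries on plastic at 100 nM and at 3.08, 2.61 and 2.42 CPM on the gel at that dose. At 250 nM it stood at 2.07, 2.82 and 3.53 CPM on plastic and at 2.31, 1.94 and 2.11 CPM on the gel. All 3 plastic libraries at 100 nM lay above all 9 others, and within that group replicate 3 was the low one. The share of all genes with this pattern was not computed. Of all tested genes 9.38% had gel libraries below all plastic libraries at 100 nM. All plastic libraries at 250 nM lay below those at 100 nM for 19.3%. The group means were 13.3 ± 5.83 CPM on plastic and 2.71 ± 0.340 CPM on the gel at 100 nM, and 2.81 ± 0.733 and 2.12 ± 0.186 CPM at 250 nM (SD, n = 3 each). In TPM too, plastic at 100 nM was the high group, with 30.0, 22.5 and 10.4 TPM against at most 4.78 TPM elsewhere. The levels at 250 nM rest on few reads, 5, 6 and 9 expected counts on plastic and 7, 4 and 5 on the gel.

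On the gel at 100 nM CCL2 fell 4.90-fold against plastic (log2 change -2.29, SE 0.40, 95% interval -3.16 to -1.43, edgeR quasi-likelihood test, Benjamini-Hochberg adjusted p = 0.0342 over 12329 genes). Of the 8 cytokines it was the only one called in that comparison at an adjusted p under 0.05, where 0.219% of all tested genes were called and 0.154% were called lower. The call was lost when plastic replicate 1 (adjusted p = 0.178), plastic replicate 2 (0.214) or any gel replicate (0.117, 0.115 and 0.233) of that dose was left out. It was also lost without plastic replicates 2 (0.0637) or 3 (0.0569) or gel replicate 3 (0.0517) of the 250 nM groups, with a replicate block (0.0534), with only the groups compared (0.0766) and on the TPM scale (0.0582 with a pseudocount of 1). The log2 change itself stayed between -2.61 and -2.02 over 25 settings, 13 of which called it. With the 2 gel libraries that stood apart left out, it was -2.39 (adjusted p = 0.0207).

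At 250 nM the gel and plastic libraries of CCL2 overlapped (log2 change -0.39, 95% interval -1.50 to 0.71, edgeR adjusted p = 0.846). The difference between the 2 gel effects was 1.90 on the log2 scale (95% interval 0.49 to 3.30), with an unadjusted p of 0.0117 and an edgeR adjusted p of 0.755, so a difference between doses did not pass the test. Averaged over both doses the change was -1.34 (adjusted p = 0.0774), and it was called by DESeq2 (0.0321), with no filter on low counts (0.0460) and without plastic replicate 3 at 100 nM (0.0363).

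CXCL12 varied widely between replicates, and no comparison called it. The gene (chr10:44370165-44386493, minus strand) stood at 15.9, 34.4 and 6.33 CPM on plastic at 100 nM and at 3.27, 22.8 and 12.7 CPM on the gel. The 250 nM libraries held 6.62, 9.86 and 14.5 CPM on plastic and 9.25, 16.5 and 8.01 CPM on the gel. All 4 groups overlapped, and replicate 2 was the highest library in 3 of them. For gel against plastic the log2 change was -0.53 at 100 nM (95% interval -1.88 to 0.82, edgeR adjusted p = 0.839) and 0.10 at 250 nM (-1.43 to 1.64, adjusted p = 0.977). As a ratio of gel to plastic, the interval for CXCL12 at 250 nM spans 0.371 to 3.11, so changes of that size were not detectable at this spread.

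IL11 and LIF both signal through gp130. IL11 binds IL11RA and is a product of activated fibroblasts known for its part in fibrosis, and LIF binds LIFR and keeps mouse embryonic stem cells undifferentiated in culture. IL11 (chr19:55364389-55370463, minus strand) differed little between the groups. It stood at 25.9, 12.2 and 12.03 CPM on plastic and at 24.3, 15.9 and 23.1 CPM on the gel at 100 nM. At 250 nM it stood at 21.5, 21.6 and 25.5 CPM on plastic and at 34.0, 16.5 and 26.5 CPM on the gel. The group means, 16.7 ± 7.94, 21.1 ± 4.52, 22.9 ± 2.29 and 25.7 ± 8.80 CPM in that order (SD, n = 3 each), gave no call in any comparison, and the libraries of all groups overlapped. It was the member with the narrowest interval for the gel effect over both doses, a log2 change of 0.25 (95% interval -0.25 to 0.76, edgeR adjusted p = 0.733). Between doses the change was 0.45 on plastic (adjusted p = 0.433) and 0.30 on the gel (adjusted p = 0.578), so IL11 was the only one of the 8 with a positive change at 250 nM on both substrates, and neither passed the test.

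LIF (chr22:30240447-30246851, minus strand) was sparse, and 1 library held most of its reads on plastic at 100 nM. It stood at 11.9, 1.70 and 1.74 CPM on plastic and at 1.63, 6.19 and 2.71 CPM on the gel at 100 nM. The values at 250 nM were 1.66, 0 and 0.393 CPM on plastic and 1.32, 0.486 and 0.421 CPM on the gel. The library at 0 allows a level of up to 1.41 CPM, the value of 3 counts, which covers counting error only. On both substrates all 3 libraries at 250 nM lay below all 3 at 100 nM, by a narrow gap of 1.66 to 1.70 CPM on plastic. On each substrate alone 19.3% of all tested genes had 250 nM libraries below all those at 100 nM. The log2 change between doses was -2.83 on plastic (SE 1.06, edgeR adjusted p = 0.108) and -2.14 on the gel (SE 1.04, adjusted p = 0.177), so neither passed the test. With no filter on low counts the change of LIF on plastic was called (adjusted p = 0.0135). For gel against plastic it was -0.54 at 100 nM (adjusted p = 0.878) and 0.16 at 250 nM (adjusted p = 0.981). The antisense genes LIF-AS1 and AC004264.1 overlap LIF, and the strand setting of the counting is not given in the sources used here, so their reads cannot be told apart.

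IL7 and IL15 are the lymphocyte survival factors among the 8, made by stromal cells. IL7 supports T cells, and IL15 supports NK cells and memory T cells, mostly while held on IL15RA of the producing cell. IL7, on chromosome 8, stood at 4.94, 1.55 and 3.80 CPM on plastic and at 5.44, 0.962 and 1.57 CPM on the gel at 100 nM. At the higher dose the values were 1.24, 0 and 1.96 CPM on plastic and 0, 2.91 and 2.95 CPM on the gel, where a 0 allows up to 1.41 and 0.991 CPM. The groups overlapped in each comparison, and a library at 0 was present in both 250 nM groups. The log2 change on the gel was -0.39 at 100 nM (95% interval -2.27 to 1.48, edgeR adjusted p = 0.929) and 0.74 at 250 nM (-1.78 to 3.25, adjusted p = 0.876), which are among the widest intervals of the 8. ZC2HC1A and the long RNA AC083837.2 overlap IL7 on the opposite strand, so IL7 reads are uncertain in the same way as those of LIF. The pseudogenes AC100854.1 and THAP12P7 overlap IL7 on the same strand.

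IL15 was the only one of the 8 whose gel libraries lay below all plastic libraries at both doses. The gene (chr4:141636599-141733987, plus strand) stood at 4.00, 3.87 and 4.59 CPM on plastic and at 1.45, 2.2 and 1.85 CPM on the gel at 100 nM. The 250 nM libraries held 6.21, 2.35 and 3.14 CPM on plastic and 1.65, 0.971 and 1.26 CPM on the gel. Of all tested genes 239, or 1.94%, had gel libraries below all plastic libraries at both doses. The means were 4.16 ± 0.383 and 1.83 ± 0.374 CPM at 100 nM and 3.90 ± 2.04 and 1.30 ± 0.342 CPM at 250 nM (SD, n = 3 each), from 8 to 30 expected counts per library at the lower dose and 2 to 15 at the higher.

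In the model IL15 did not pass the threshold. Its log2 change on the gel was -1.16 at 100 nM (SE 0.48, 95% interval -2.18 to -0.14, edgeR adjusted p = 0.449) and -1.55 at 250 nM (SE 0.58, -2.78 to -0.31, adjusted p = 0.367). Averaged over both doses it was -1.35, a 2.56-fold lower fitted level, with an unadjusted p of 0.00276 and an edgeR adjusted p of 0.114. That adjusted p ran from 0.0525 with DESeq2 to 0.295 over 24 settings, none of which called the gene. The difference between the 2 gel effects was -0.39 (95% interval -1.98 to 1.21, adjusted p = 0.918). On the TPM scale the gel libraries of IL15 stood at 0.92, 1.33 and 0.31 TPM against 2.36, 2.03 and 2.58 TPM on plastic at 100 nM, and at 0.29, 0.53 and 0.59 TPM against 1.42, 0.65 and 0.73 TPM at 250 nM. The gel libraries were thus the lower ones in TPM too. The length that RSEM assigned to IL15 varied from 1545 to 6026 bases between libraries over its 8 annotated transcripts, which moves its TPM and not its CPM.

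**Figure D2:**
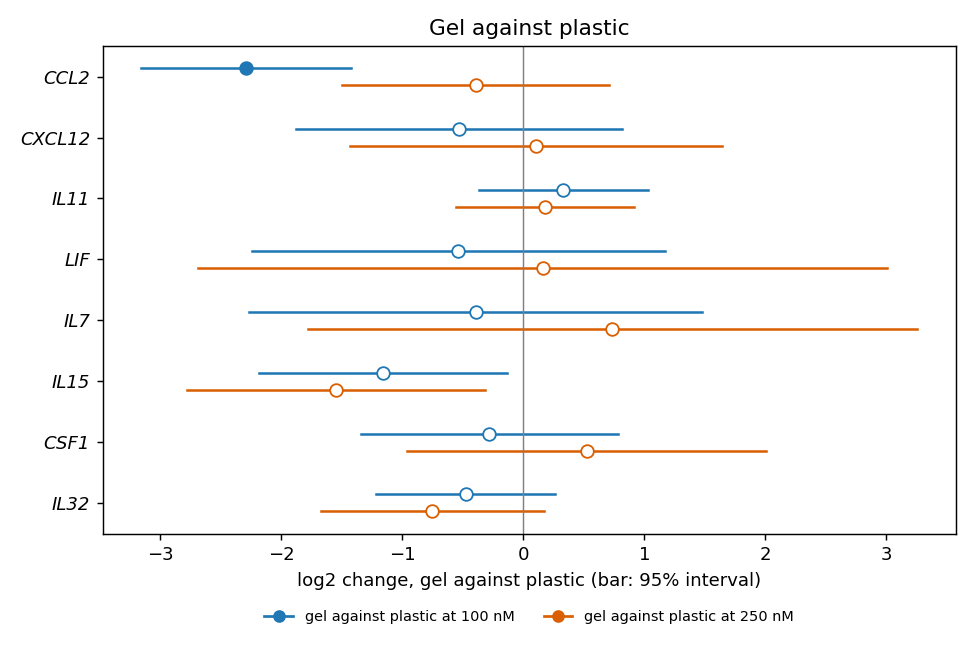
Log2 change of each cytokine mRNA on the gel against plastic, fitted by edgeR, at 100 nM and at 250 nM. Bars are 95% intervals and a filled point has an adjusted p under 0.05. The point of CCL2 at 100 nM, -2.29, is the filled one, and both IL15 points, -1.16 and -1.55, have intervals below 0 with open symbols.

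Over the 8 members, gel against plastic gave 1 call at 100 nM, in the direction of lower, as described for CCL2. DESeq2 and limma-voom also called 1 and limma-trend on log2(TPM + 1) called 0. At an unadjusted p under 0.05 there were 2 (CCL2 and IL15), against 9.86% of all genes. At 250 nM edgeR, DESeq2, limma-voom and limma-trend each called 0, where edgeR called 0.00811% of all genes. At an unadjusted p under 0.05 there was 1 member (IL15), against 9.93% of all genes. Averaged over both doses edgeR, limma-voom and limma-trend called 0 members and DESeq2 called 1, where edgeR called 0.795% of all genes. At an unadjusted p under 0.05 there were 3 (CCL2, IL15 and IL32), against 12.4% of all genes. For the difference between doses each tool called 0, where edgeR called 0% of all genes, and 1 member (CCL2) had an unadjusted p under 0.05, against 6.25% of all genes. The median log2 change of the 8 was -0.50 at 100 nM and 0.13 at 250 nM, against -0.01 and -0.02 over all tested genes. Groups did not overlap, with the gel lower, for CCL2 and IL15 at 100 nM, where 9.38% of all tested genes had this pattern, and for IL15 and IL32 at 250 nM, where 7.62% had it.

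Of 8 endothelial markers only TEK passed the filter, at a mean of 20.9 CPM, and CLDN5 was at 0 in every library. Every other marker had a mean of at most 0.895 CPM (ESAM), so the sum of the 8 mostly follows TEK. That sum was lower on the gel than on plastic at both doses. It was 7.56 to 14.3 against 16.9 to 31.1 CPM at 100 nM and 10.1 to 30.7 against 31.5 to 43.9 CPM at 250 nM. PECAM1, VWF, CDH5 and KDR had 7, 3, 4 and 5 expected counts in all 12 libraries together. The part of these transcripts in the CCL2 and IL15 values was not tested.

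CSF1, the growth and survival factor of macrophages, was lower in the libraries at the higher dose on plastic. The gene (chr1:109910242-109930992, plus strand) stood at 8.94, 6.81 and 6.81 CPM on plastic and at 2.72, 11.0 and 4.71 CPM on the gel at 100 nM. At 250 nM it stood at 1.66, 1.41 and 1.96 CPM on plastic and at 2.64, 3.88 and 0.843 CPM on the gel. The plastic groups did not overlap, 7.52 ± 1.23 against 1.68 ± 0.278 CPM, and the gel groups overlapped. Of all tested genes 19.3% had plastic libraries at 250 nM below all those at 100 nM. The levels at 250 nM rest on few reads, 4, 3 and 5 expected counts on plastic and 8, 8 and 2 on the gel. The small SD on plastic at 250 nM is therefore uncertain. On plastic CSF1 fell 4.41-fold at 250 nM against 100 nM (log2 change -2.14, SE 0.61, edgeR adjusted p = 0.0438). On the gel the change was -1.34 (95% interval -2.58 to -0.10, adjusted p = 0.131). The call on plastic was made in 15 of 25 settings. It was lost without any one of the plastic libraries at 100 nM (adjusted p = 0.0991, 0.0833 and 0.0727) or at 250 nM (0.1001, 0.170 and 0.143), without gel replicate 3 at 100 nM (0.0593), with limma-voom (0.163) and on the TPM scale (0.05002 and 0.0607 with pseudocounts of 1 and 0.1).

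IL32, a proinflammatory cytokine that humans have and mice lack, was lower at 250 nM on both substrates. The gene (chr16:3065297-3082192, plus strand) stood at 12.1, 23.1 and 27.1 CPM on plastic and at 22.3, 11.0 and 11.5 CPM on the gel at 100 nM. With 250 nM the values were 8.28, 9.86 and 7.07 CPM on plastic and 4.63, 3.88 and 6.32 CPM on the gel. Every library at 250 nM lay below every library at 100 nM, and at 250 nM the gel libraries lay below the plastic ones. The share of all genes with the first pattern over both substrates was not computed. On each substrate alone 19.3% of all tested genes had it, and 7.62% had the second pattern. The means were 20.8 ± 7.73 and 15.0 ± 6.38 CPM at 100 nM against 8.40 ± 1.4 and 4.94 ± 1.25 CPM at 250 nM, each given as plastic and gel (SD, n = 3). The 2 groups at 100 nM overlapped.

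At 250 nM IL32 fell 2.47-fold on plastic (log2 change -1.31, SE 0.38, edgeR adjusted p = 0.0466) and 2.99-fold on the gel (log2 change -1.58, SE 0.40, adjusted p = 0.0211). The plastic call was made in 13 of 25 settings. It was lost without plastic replicates 2 (adjusted p = 0.120) or 3 (0.139) or gel replicates 2 (0.0558) or 3 (0.0602) at 100 nM, without any plastic replicate (0.102, 0.123 and 0.182) or gel replicates 2 (0.0531) or 3 (0.0538) at 250 nM, with limma-voom (0.126), with a replicate block (0.0661) and with a TPM pseudocount of 0.1 (0.0533). The gel call was made in 20 of 25 settings and was lost without gel replicate 1 at 100 nM (log2 change -1.17, 0.0840), without gel replicate 2 at 250 nM (0.0531), with limma-voom (0.0996) and with only the groups compared (0.0661). Without replicate 1 of both gel groups the change on the gel was -1.13 (adjusted p = 0.129). For gel against plastic the log2 change of IL32 was -0.48 at 100 nM (adjusted p = 0.701) and -0.75 at 250 nM (adjusted p = 0.596). The long RNA AC108134.3 overlaps the gene on the opposite strand, so IL32 reads are uncertain in the same way as those of LIF. The small RNA RNU1-125P overlaps IL32 on the same strand, and 35 transcripts are annotated for IL32.

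CCL2 was the third gene called lower at the higher dose on plastic. Its plastic libraries fell 4.70-fold at 250 nM (log2 change -2.23, SE 0.44, edgeR adjusted p = 0.0104), and 22 of 25 settings called it. The call was lost without plastic replicates 2 (0.0660) or 3 (0.0529) at 250 nM and with limma-voom (0.0750). On the gel its change was -0.33 (adjusted p = 0.667), although the gel libraries at 250 nM, 1.94 to 2.31 CPM, lay just below those at 100 nM, 2.42 to 3.08 CPM. CXCL12 had a log2 change of -0.86 on plastic (adjusted p = 0.449) and -0.23 on the gel (adjusted p = 0.850), IL7 of -1.61 (0.359) and -0.48 (0.777), and IL15 of -0.08 (0.936) and -0.47 (0.605). On the TPM scale with a pseudocount of 0.1 the IL15 change on plastic was -1.30, and its RSEM lengths on plastic were 3425 to 4523 bases at 250 nM against 1872 to 2000 bases at 100 nM. The gel and dose comparisons share their groups, so the values of CCL2 in them are not independent of each other.

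**Figure D3:**
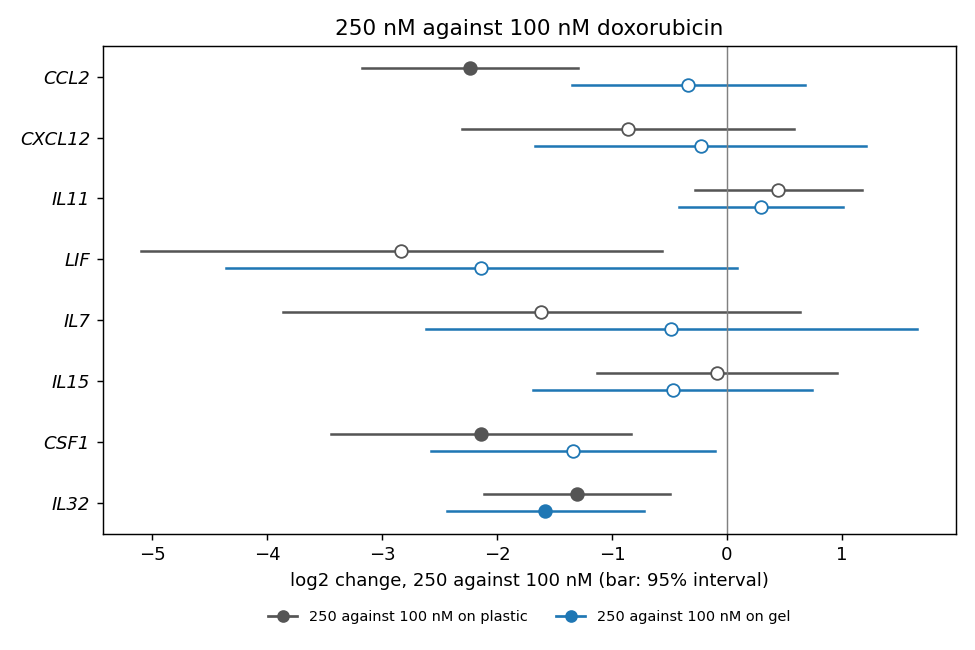
Log2 change of each cytokine mRNA at 250 nM against 100 nM, fitted by edgeR, on plastic and on the gel. Bars are 95% intervals and a filled point has an adjusted p under 0.05. CCL2 (-2.23), CSF1 (-2.14) and IL32 (-1.31) are filled on plastic and IL32 (-1.58) on the gel, and IL11 is the one gene to the right of 0 on both.

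In all, 3 of the 8 members were called at 250 nM against 100 nM on plastic, each lower, where 8.61% of all tested genes were called and 4.52% were called lower. On the gel 1 of 8 was called lower, where 13.8% of all genes were called and 6.89% were called lower, so the count on the gel is near the background. DESeq2 called 3 and 1 members, limma-voom 0 and 0, and limma-trend on log2(TPM + 1) 2 and 1. At an unadjusted p under 0.05 edgeR had 4 members on plastic, against 25.8% of all genes, and 2 on the gel, against 31.4%. The groups did not overlap, with 250 nM lower, for 4 members on plastic (CCL2, CSF1, IL32 and LIF) and 3 on the gel (CCL2, IL32 and LIF), where 19.3% of all tested genes had this pattern on each substrate. The median log2 change of the 8 was -1.46 on plastic and -0.48 on the gel, against -0.04 and -0.02 over all genes. Depth differed between the doses as given above. Of 6 pericyte and smooth muscle markers 3 passed the filter, and the sum of the 6 was 55.4 to 84.9 CPM at 100 nM and 97.3 to 140 CPM at 250 nM. The 3 that passed were CSPG4, RGS5 and NOTCH3, with a mean of 54.2, 27.2 and 9.60 CPM. MYH11, DES and KCNJ8 did not pass and had a mean of 0.409, 0.683 and 1.11 CPM. Of 9 epithelial markers 3 passed the filter (KRT8, KRT18 and KRT19), with the sum of the 9 at 42.5 to 115 CPM at 100 nM and 90.6 to 221 CPM at 250 nM, and KRT5, SFTPC, SCGB1A1 and NKX2-1 were at 0 in every library. The part of depth, library set and these transcripts in the dose results was not tested.

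**Figure D4:**
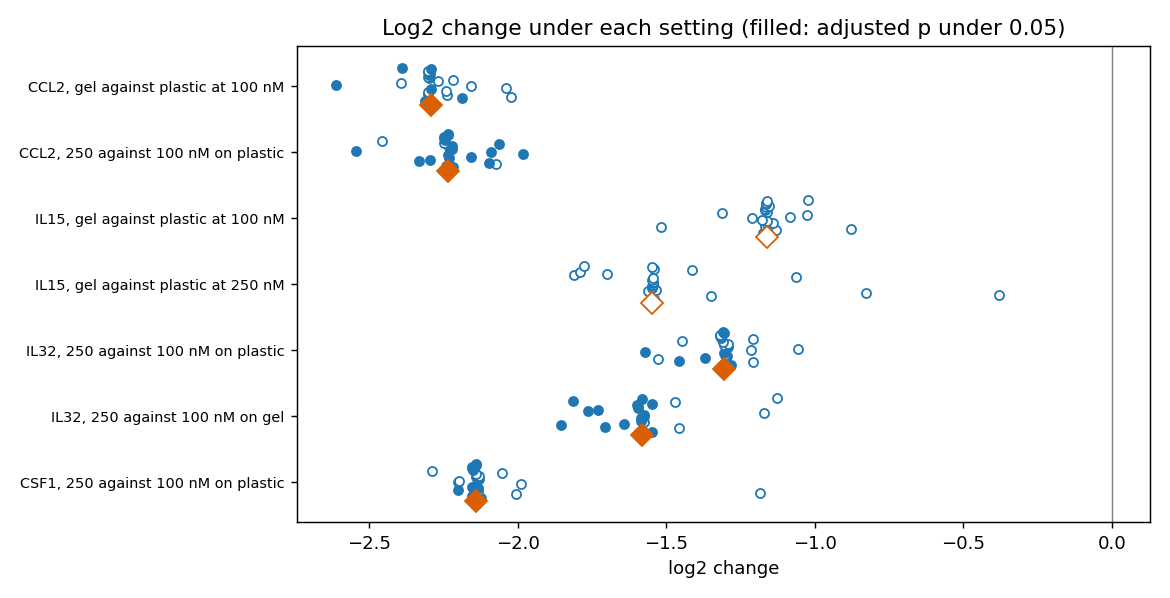
Log2 change of 4 cytokine mRNAs under each analysis setting. Diamonds are the reported values, circles the alternatives, and filled symbols have an adjusted p under 0.05. For CCL2 on the gel at 100 nM the values run from -2.61 to -2.02 and 13 of 25 are filled, and neither row of IL15 has a filled symbol.

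Putting the 4 groups in order by mean CPM, CCL2 stood highest on plastic at 100 nM, followed by plastic at 250 nM, the gel at 100 nM and the gel at 250 nM. In that order the middle pair overlapped and the other neighbours did not. IL32 ran from plastic at 100 nM through the gel at 100 nM and plastic at 250 nM to the gel at 250 nM, and only the first pair overlapped. IL15 ran from plastic at 100 nM through plastic at 250 nM and the gel at 100 nM to the gel at 250 nM, and of these neighbours only plastic at 250 nM and the gel at 100 nM were apart. CXCL12, IL7 and CSF1 shared one order, plastic at 100 nM, gel at 100 nM, gel at 250 nM and plastic at 250 nM, with every neighbour overlapping. LIF had that order too, with the 2 gel groups apart. IL11 ran the other way, highest on the gel at 250 nM and lowest on plastic at 100 nM, with every neighbour overlapping. On each substrate alone 19.3% of all tested genes had 250 nM libraries below all those at 100 nM. At 250 nM 7.62% had gel libraries below all plastic libraries. The share for neighbours that differ in both dose and substrate was not computed.

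Promoter sequence could be set beside these levels for 3 of the 8 genes, CXCL12, IL11 and IL32, which have 4 entries in the RefSeq promoter table (GRCh38.p14, 250 bases before to 50 after each start). Motifs were searched on both strands: TGANTCA for AP-1, the NF-kB consensus, TTCNNNGAA for STAT factors and TATAAA. Matches are shown for IL11 and IL32, and the CXCL12 entry had none. Whether they relate to the mRNA levels was not tested. The IL11 stretch covers chr19:55370543-55370569 on the minus strand, with an AP-1 match in capitals 96 to 90 bases before the start that reads as the motif on both strands. The IL32 stretch covers chr16:3065294-3065323 on the plus strand, with an NF-kB consensus match in capitals 99 to 90 bases before the start of 1 of its 2 entries. A second match of that consensus, on the other strand, overlaps it with a shift of 1 base.
IL11: gcagggagggTGAGTCAggatgtgtca
IL32: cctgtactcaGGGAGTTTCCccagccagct

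Neither the CXCL12 entry nor the other IL32 entry held a match of any of the 4 motifs, which says only that these letters are not in those windows. Of 35116 promoters of this length 7.71% held the AP-1 motif, 11.3% the NF-kB consensus, 7.66% the STAT motif and 11.5% TATAAA. A match is a description of the sequence and no evidence of binding.

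Of 13 receptors for these ligands 5 passed the filter: CXCR4, IL7R, IL11RA, IL6ST (gp130) and LIFR. CCR2, the receptor of CCL2, the scavenger ACKR1 and the common gamma chain IL2RG were at 0 in every library, and CSF1R, the receptor of CSF1, had 3 expected counts in all. The gp130 chain was the most abundant receptor mRNA, at 157 ± 30.2 and 137 ± 18.4 TPM on plastic and gel at 100 nM and 127 ± 17.3 and 88.6 ± 66.4 TPM at 250 nM (SD, n = 3). IL6ST fell 2.09-fold at 250 nM on plastic (edgeR adjusted p = 0.0399) and 2.30-fold on the gel (0.0187) on the count scale. It was the only receptor called, where 8.61% of all tested genes were called on plastic and 13.8% on the gel. Its lowest library in TPM, 12.02 TPM, was one of the gel libraries at 250 nM, so that group spans from 12.02 to 130 TPM.

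IL7R, the private chain of the IL7 receptor, was expressed at 46.9 ± 3.57 and 39.2 ± 12.8 TPM on plastic and gel at 100 nM and at 71.5 ± 12.02 and 32.6 ± 16.7 TPM at 250 nM. Its log2 change on the gel was -0.36 at 100 nM (edgeR adjusted p = 0.602), -0.84 at 250 nM (0.219) and -0.60 over both doses (0.0814). IL11RA stood at 8.81 ± 1.19, 4.90 ± 0.498, 11.9 ± 5.07 and 9.17 ± 8.62 TPM in plastic and gel at 100 nM and then at 250 nM, and LIFR at 1.67 ± 0.384, 2.29 ± 0.640, 1.06 ± 0.135 and 0.870 ± 0.669 TPM. Neither gave a call in any comparison. IL15RA, which presents IL15, was below the filter, with 34 and 19 expected counts in all on plastic and gel at 100 nM and 9 and 0 at 250 nM. The 5 tested receptors had a median log2 change on the gel of -0.20 at 100 nM and -0.39 at 250 nM, and between doses of 0.18 on plastic and 0.17 on the gel. The gel comparisons called 0 receptors with edgeR, where 0.219% at 100 nM, 0.00811% at 250 nM and 0.795% over both doses of all tested genes were called. At an unadjusted p under 0.05 there were 0, 1 and 1 receptors in that order, the 1 being IL7R. Of all tested genes 9.86%, 9.93% and 12.4% had such a p.

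**Figure D5:**
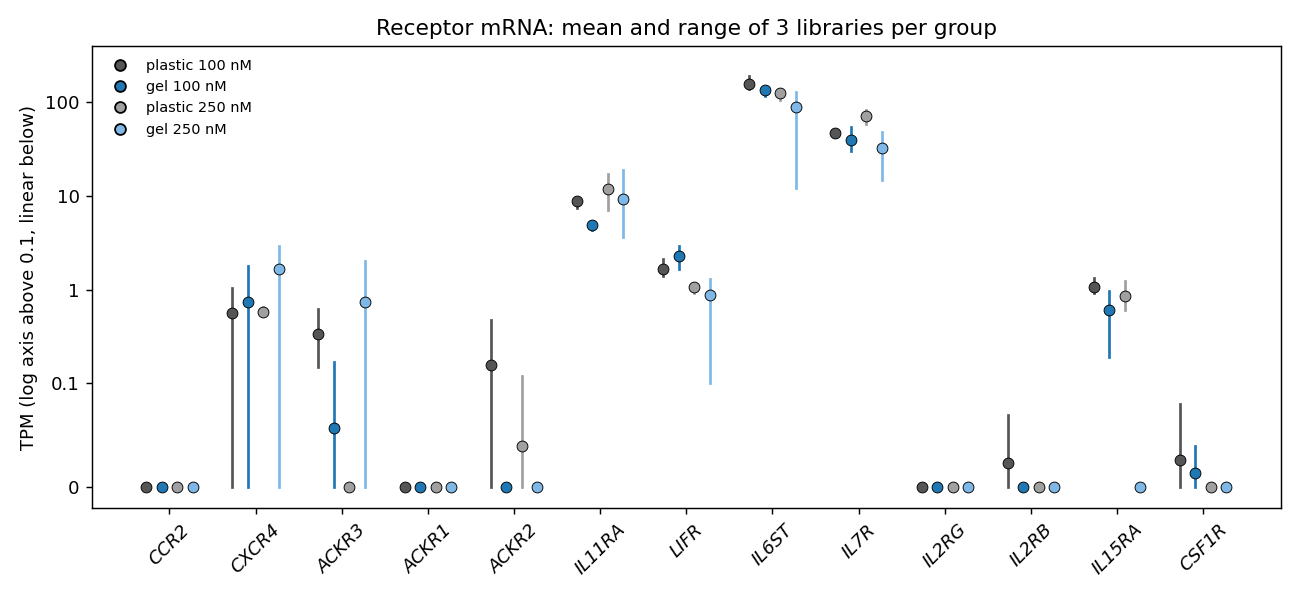
Level of the receptor mRNAs of these cytokines in the 4 groups, in TPM on an axis that is logarithmic above 0.1 and linear below. Points are means of 3 libraries and bars span the lowest to the highest library. IL6ST and IL7R stand above the other receptors, and CCR2, ACKR1 and IL2RG are at 0 in each group.

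Among 20 genes of gp130, common gamma chain and CSF1 signalling, 17 were tested. STAT3, the main STAT factor downstream of gp130, rose 2.62-fold at 250 nM on plastic (edgeR adjusted p = 0.00453) and 2.16-fold on the gel (0.00738). It was the 1 gene of the list called higher on either substrate. OSMR, a partner of gp130 for oncostatin M, fell 2.01-fold on plastic (0.0370). On the gel SOCS2, an inhibitor of JAK signalling, fell 5.15-fold (0.00848) and CBL, a ubiquitin ligase that turns over activated receptors, fell 2.11-fold (0.0355). The list had a median log2 change between doses of -0.39 on plastic and -0.51 on the gel, against -0.04 and -0.02 over all genes. Of the 17 genes 14 were negative on each substrate, and the share of all genes that were negative was not computed. EdgeR called 1 gene of the list higher and 1 lower on plastic, and 1 higher and 2 lower on the gel. Of all tested genes 8.61% on plastic and 13.8% on the gel were called.

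Among 18 genes for shedding, cleavage and presentation of these ligands, 15 were tested. The heparan sulfate proteoglycan SDC3 fell at 250 nM on both substrates, 2.53-fold on plastic (edgeR adjusted p = 0.0218) and 2.67-fold on the gel (0.0149). Its relatives SDC4 and GPC6 fell 3.53-fold (0.00474) and 3.83-fold (0.0242) on plastic. On the gel the sheddase ADAM10 fell 1.82-fold (0.00757) and EXT1, which builds heparan sulfate chains, fell 1.75-fold (0.0215). For dose edgeR called 3 of the 15 tested genes on each substrate, all lower. Of all tested genes 4.52% on plastic and 6.89% on the gel were called lower. SDC4 stood at 123 ± 9.90 CPM on plastic and 57.3 ± 14.2 CPM on the gel at 100 nM and at 34.7 ± 8.20 and 44.1 ± 19.2 CPM at 250 nM. Its log2 change on the gel at 100 nM was -1.10 (adjusted p = 0.169).

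The NF-kB list, the kinases, inhibitors and subunits of a pathway that acts on CCL2, IL32 and other cytokine genes, had 14 of 16 genes tested. RELA, a subunit of the factor, rose at 250 nM 1.85-fold on plastic (edgeR adjusted p = 0.0373) and 2.29-fold on the gel (0.00859). IRAK1, a kinase of Toll-like and IL1 receptors, rose 1.86-fold on plastic (0.0259). On the gel the inhibitor NFKBIE rose 2.38-fold (0.0294) and the kinase CHUK fell 3.12-fold (0.0324). The list's median log2 change was -0.03 on plastic and 0.11 on the gel. Its dose calls were 2 higher and 0 lower on plastic, and 2 higher and 1 lower on the gel. Of all tested genes 8.61% on plastic and 13.8% on the gel were called.

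Of 28 other cytokines and chemokines 5 were tested, CCL3, TNFSF13B, CLCF1, CTF1 and KITLG, and edgeR called 0 of them in each of the 6 comparisons. Of all tested genes edgeR called 8.61% for dose on plastic, 13.8% for dose on the gel and at most 0.795% in the other comparisons. CCL3, a macrophage chemoattractant, had a log2 change on the gel of 3.11 at 100 nM (adjusted p = 0.281), 2.01 at 250 nM (0.438) and 2.56 over both doses (0.0814), the opposite direction to CCL2. It stood at 0.230 ± 0.275 and 2.26 ± 1.64 CPM on plastic and gel at 100 nM and at 1.77 ± 1.53 and 7.42 ± 3.95 CPM at 250 nM. These levels rest on few reads, with summed expected counts of 5 and 47 on plastic and gel at 100 nM and 12.6 and 52 at 250 nM. At an unadjusted p under 0.05 there was 1 gene of this list, CCL3, in each of the gel comparisons. Of all tested genes 9.86% at 100 nM, 9.93% at 250 nM and 12.4% over both doses had such a p. CCL5, CCL8, CCL11, CCL13, CXCL9, CSF2, OSM and TNF were at 0 expected counts in all 12 libraries.

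In the signalling, shedding and NF-kB lists, as in the receptors, gel against plastic gave 0 calls with edgeR at either dose or over both. Their median log2 changes on the gel at 100 nM and 250 nM were 0.13 and -0.12 for signalling, -0.30 and -0.01 for shedding, and 0.16 and 0.21 for NF-kB. At an unadjusted p under 0.05 the signalling list had 1 gene in each of these 3 comparisons, the shedding list 4, 5 and 5, and the NF-kB list 1, 0 and 1. The lists hold 17, 15 and 14 tested genes, and the share of all tested genes at that p was 9.86%, 9.93% and 12.4% in the 3 comparisons. In the same order edgeR called 0.219%, 0.00811% and 0.795% of all tested genes. For the difference of the gel effect between doses these lists, the receptors and the other cytokines had 0 calls, with 2 of 15 genes of the shedding list at an unadjusted p under 0.05 and none of the others, against 6.25% of all genes.

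The closest patterns to each cytokine were read from log2 CPM over the 12 libraries after subtracting the mean of each dose, among 10930 protein-coding genes, as a description with no p. The 12 points share 2 library sets and their depths. CCL2 was most like LBHD1 (r = 0.95), TCEAL9 (0.93) and ATP5F1E (0.91), and CXCL12 most like CCT4, RAB11A and C6orf120 (0.94 each). IL15 was closest to ARSJ (0.94), THRA (0.94) and MOXD1 (0.93), and IL32 to PHF14 (0.92), FAP (0.91), a fibroblast surface protease, and IFT46 (0.91). IL7 was closest to ZBED1 (0.91), IL11 to PABPN1 (0.89), LIF to SNAI2 (0.89) and CSF1 to MADD (0.88). Among the 8 themselves the correlations ran from -0.60 for IL32 with LIF to 0.66 for CXCL12 with CSF1. The nearest genes were picked as the highest of 10930, so their values cannot be compared with these. CCL2 and IL15, the pair whose gel libraries lay below all plastic libraries at 100 nM, had r = 0.52. Subtracting the dose means leaves that shared difference in the value.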

How the data were processed

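RNA-seq tables of 12 IMR90 libraries were analysed. Tools listed in the submitters' processing notes are Trimmomatic, STAR, RSEM and DESeq2 1.36.0, with GRCh38 as the build. Not given in the sources used here are their roles, the annotation release, the strand setting and any collapsing by molecular identifiers. Per the file headers, each deposited table holds RSEM's expected count per gene, an estimate that need not be whole. The same deposited tables hold TPM, which RSEM scales for length and total.

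Expected counts were rounded and fitted with edgeR 4.0.16 in R 4.3.3 (filterByExpr, TMM, robust quasi-likelihood model with 4 group means, 8 residual degrees of freedom). P-values were adjusted by Benjamini and Hochberg over 12329 genes within each of 6 comparisons and called under 0.05. The common biological coefficient of variation was 0.299, and a log2 change had a median SE of 0.33 (gel, 100 nM), 0.36 (gel, 250 nM) or 0.35 (each dose comparison).

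Alternatives were RLE and upper-quartile scaling, DESeq2 1.42.0, limma 3.58.1 (voom, and trend on log2(TPM + 1) or log2(TPM + 0.1)), no filter, only the groups compared, a replicate block, no ribosomal DNA repeat loci and each library left out. A fit that was not robust, and one without replicate 1 of both gel groups, were added after seeing the data. Named were the 8 members, up to 4 called genes per list with a mean of at least 1 CPM, and the 3 nearest genes of a member, of which some are left out for length. CCL3, SDC4 levels and genes at 0 were named after their values were seen. The members and lists were chosen with earlier results of these data known.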

Additional observations from a re-analysis of the deposited data

How the results depend on the processing

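Depth limits these results: at 250 nM CCL2, LIF, IL7, IL15 and CSF1 had at most 15 expected counts per library. Of 1115 member log2 changes under alternatives, 1013 kept their direction and side of the threshold, 42 lost a call, 4 gained one and 56 changed direction, 0 of these called. The cause of each change was not tested. Fits of only the groups compared give no average or difference, and a gene under the filter of an alternative, most often LIF, has no value there.

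Members called on the gel at 100 nM went from 1 to 0 with limma-trend at both pseudocounts, with only the groups compared and with the replicate block, and ranged from 0 to 1 with a library left out. Averaged over both doses 0 became 1 with DESeq2 and with no filter, and ranged from 0 to 1 with a library left out. At 250 nM against 100 nM on plastic 3 became 4 with no filter (LIF added), 0 with limma-voom and 1 with limma-trend on log2(TPM + 0.1), and ranged from 0 to 3 with a library left out. On the gel 1 became 0 with limma-voom, with only the groups compared and with the gel replicates numbered 1 left out, and ranged from 0 to 1 with a library left out. Pairing of samples by replicate number was not evident: the correlation of same-numbered deviations ran from -0.24 to 0.14. For different numbers it ran from -0.29 to 0.39. With 3 libraries per group these values cannot exclude pairing.

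Directions reversed as follows, none of them called. With the replicate block LIF became 0.12 on the gel at 100 nM and 0.14 over both doses. Without replicate 1 of both gel groups CSF1 became 0.062 at 100 nM, IL11 -0.0822 and LIF -0.61 at 250 nM, CXCL12 0.0694 and IL7 -0.0223 over both doses, IL32 0.18 and LIF -0.39 in the difference, and IL7 1.20 between doses on the gel. Over both doses IL7, LIF and CSF1 became -0.34, 0.18 and -0.0872 with limma-voom, -0.0946, 0.0546 and -0.15 with log2(TPM + 1), and -0.22, 0.34 and -0.25 with log2(TPM + 0.1). In the difference, log2(TPM + 1) gave IL11 0.0079 and IL15 0.50, and log2(TPM + 0.1) gave IL15 0.69. Between doses on the gel CXCL12 became 0.0079 with limma-voom and 0.12 and 0.20 on the TPM scales. With a library left out, ranges that crossed 0 were CXCL12 -1.22 to 0.22, IL7 -1.43 to 0.0112 and CSF1 -1.01 to 0.0596 on the gel at 100 nM. At 250 nM they were CXCL12 -0.28 to 0.43, IL11 -0.0948 to 0.39 and LIF -0.62 to 1.75. Over both doses they were CXCL12 -0.56 to 0.16, IL7 -0.35 to 0.54, CSF1 -0.24 to 0.31 and LIF -0.58 to 0.60. In the difference they were CXCL12 -0.11 to 1.33, IL11 -0.62 to 0.0657, IL15 -0.65 to 0.10, IL32 -0.52 to 0.12 and LIF -0.0834 to 2.29. Between doses they were IL15 -0.60 to 0.15 on plastic, and CXCL12 -0.66 to 0.46 and IL7 -0.996 to 0.55 on the gel.

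Genes called over all alternatives ran from 5 to 231 on the gel at 100 nM (27 reported), 0 to 181 at 250 nM (1), 38 to 468 over both doses (98), 0 to 63 for the difference (0), 118 to 2547 for dose on plastic (1061) and 516 to 2404 for dose on the gel (1703).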

Other observations

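The length that RSEM assigned to a gene in each library, a mean over its transcripts weighted by their estimated share, varied for LIF from 987 to 3871 bases and for IL15 from 1545 to 6026 bases. For IL15 it was 6026 bases in gel replicate 3 at 100 nM, against 1545 and 1727 bases in the other gel libraries of that dose, where the expected counts were 13, 8 and 16. CCL2 varied less, from 741 to 994 bases, and CSF1 from 3033 to 3994 bases.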
